A study of Mus musculus with 15 samples.

Results

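The phase II conjugation enzymes attach a polar group to drugs, hormones, bilirubin and oxidized lipids so that these can leave the liver. They were taken here as every gene whose symbol begins with Gsta, Gstm, Gstp, Gstt, Gstk, Gsto, Gstz, Mgst, Ugt1, Ugt2, Ugt3 or Sult, which gave 53 of the 16330 genes in the table. These were 20 soluble glutathione transferases, 3 microsomal glutathione transferases, 19 Ugt genes (UDP-glucuronosyltransferases and the related Ugt3 genes) and 11 sulfotransferases. A level of at least 10 normalized counts in at least 3 libraries was reached by 47 of them, and only these were tested. The other 6 (Gsto2, Sult2a3, Sult2b1, Sult6b1, Ugt1a2 and Ugt1a8) had means of 0.794 to 3.62 normalized counts over all libraries.

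RNA-seq was run on 15 mouse liver libraries in 4 groups. The control mice expressed luciferase, a light-producing enzyme, and the others expressed LbNOX, an enzyme from Lactobacillus brevis that oxidizes NADH to NAD+ and reduces oxygen to water. Both were given water or ethanol by gavage, and livers were taken 6 h later: luciferase with water (M1 to M5, n = 5), luciferase with ethanol (M10 to M12, n = 3), LbNOX with water (M6 to M9, n = 4) and LbNOX with ethanol (M13 to M15, n = 3). The series' design text names wild-type or ChREBP animals, whereas titles and table header name luciferase and LbNOX, which were followed, so that the ChREBP genotype of each group is unresolved. Strain, age, sex, ethanol dose and the means by which the constructs reached the liver are not given in the sources used here. Whether each library is a separate animal is not stated in the labels, and the p-values speak only of the spread among these samples, which may be technical.

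Glutathione transferases join glutathione to reactive compounds. UDP-glucuronosyltransferases of the Ugt1 and Ugt2 families, proteins of the endoplasmic reticulum membrane, add glucuronic acid from the donor UDP-glucuronic acid. Cytosolic sulfotransferases add sulfate from the donor PAPS. Hepatocytes express all of these families strongly, and a small part of ingested ethanol itself leaves the body as ethyl glucuronide and ethyl sulfate. The regulators NRF2, AhR, CAR and PXR are known to induce many of the genes, and HNF1 is known to act on Ugt promoters.

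Reads recovered from the table ran from 10.6 to 23.7 M per library. The 53 genes together held 1.64% (M10) to 2.93% (M4) of a library's reads. The 8 hepatocyte markers examined, Alb among them, summed to between 502083 and 962471 normalized counts in every library, so the labelled tissue showed its defining genes. Of these 8, 1 (12.5%) was called, as higher after ethanol in luciferase livers, beside 7.75% of all genes. Of marker lists for 8 other sources (bile duct, Kupffer, neutrophil, endothelial, stellate, T and NK, red blood, and intestine with pancreas), only T and NK cells and intestine with pancreas held a called gene in the 5 comparisons. Lists with no called gene could still have large median log2 fold changes: for 6 bile duct genes it was 1.06 after ethanol in luciferase livers and -0.87 for LbNOX against luciferase after ethanol, and for 5 neutrophil genes 2.00 after ethanol in LbNOX livers. The bile duct list summed to 963 to 1881 normalized counts after water and 1028 to 1260 after ethanol in luciferase livers, and to 940 to 1897 in LbNOX livers after ethanol. The neutrophil list summed to 37.8 to 192 after water and 95.4 to 530 after ethanol in LbNOX livers. For T and NK cells, 1 of 8 genes, Nkg7, fell after ethanol in luciferase livers, a call that held in 6 of 25 alternative settings, and the list's median was -0.98. The list summed to 238 to 802 normalized counts in luciferase livers after water and 125 to 221 after ethanol, and to 190 to 425 and 202 to 420 in LbNOX livers, with 2 of its genes at 0 in some library. For intestine with pancreas, 1 of 7 tested genes, Lct, was called in the same comparison (5 of 21 settings) and for LbNOX against luciferase after ethanol (19 of 20). Lct had 8.16 to 31.2 normalized counts in luciferase livers after ethanol, 0 to 14 after water and 0 in the 3 LbNOX livers after ethanol. That list summed to 2139 to 2845 and 1684 to 2086 in luciferase and to 2019 to 6738 and 1301 to 1825 in LbNOX livers, after water and ethanol in turn. Of its genes, the pancreatic Pnlip was 1822 in M8 and 217 in M3 and at most 51.3 elsewhere, and Cpa1 was 1410, 152 and at most 49.6. Of 8 pericentral genes, Lgr5 was higher in LbNOX than luciferase livers after ethanol (1.41; 20 of 25 settings), and the list's sums overlapped (44593 to 62114 and 52458 to 69810). No gene of 8 on a periportal list was called. In the difference of the ethanol effects the medians were -0.39 for the pericentral and -0.62 for the periportal list. The part of these in the results below was not tested. Y-linked Ddx3y, Eif2s3y, Kdm5d and Uty were above 0 in all 15 libraries, with sums of 2173 to 3097. In these bulk samples, fewer cells of a type and less RNA per cell cannot be told apart.

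Of the 47 tested conjugation genes, Ugt2b35 and Ugt2b34 passed the test in some comparison. Ugdh and Slc35d1, the enzyme and the carrier of the sugar donor that Ugt1 and Ugt2 enzymes use, were the 2 called genes of the list on its supply. Calls on so few genes do not set the conjugation enzymes or glucuronidation apart from the table, where 7.75% of all genes were called after ethanol in luciferase livers and 6.06% for LbNOX against luciferase after ethanol. Ugt2b34 (chr5:86889767-86906937, minus strand) and Ugt2b35 (chr5:87000860-87013275, plus strand) lie in the Ugt2 cluster, a 601 kb stretch of chromosome 5 that holds 10 annotated Ugt2 genes in GENCODE on GRCm38. Their 250 bases before the start site, 5′ to 3′ on the gene's strand, are shown from RefSeq on GRCm38.p6, because the calls fell on these genes. Windows were chr5:86906938-86907187 for Ugt2b34, chr5:87000610-87000859 for Ugt2b35, chr5:65435843-65436092 for Ugdh and chr4:103215177-103215426 for Slc35d1 (minus strand except Ugt2b35). Capitals mark matches on either strand to TGACNNNGC, the core of the antioxidant response element that NRF2 binds, or to GCGTG, the core of the xenobiotic response element that AhR binds.
Ugt2b34: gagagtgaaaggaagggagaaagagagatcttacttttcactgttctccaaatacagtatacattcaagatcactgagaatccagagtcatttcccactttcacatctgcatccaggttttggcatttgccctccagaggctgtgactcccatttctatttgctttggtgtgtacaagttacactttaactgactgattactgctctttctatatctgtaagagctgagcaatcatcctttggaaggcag
Ugt2b35: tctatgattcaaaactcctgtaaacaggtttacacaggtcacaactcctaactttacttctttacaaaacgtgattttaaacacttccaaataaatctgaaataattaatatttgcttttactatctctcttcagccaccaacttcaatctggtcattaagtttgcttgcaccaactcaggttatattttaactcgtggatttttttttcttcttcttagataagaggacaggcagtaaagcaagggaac
Ugdh: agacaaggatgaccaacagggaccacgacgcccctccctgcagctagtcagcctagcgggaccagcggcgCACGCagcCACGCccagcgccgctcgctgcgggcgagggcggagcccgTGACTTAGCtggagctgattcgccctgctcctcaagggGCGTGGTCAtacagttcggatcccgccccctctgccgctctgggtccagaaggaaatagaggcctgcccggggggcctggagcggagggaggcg
Slc35d1: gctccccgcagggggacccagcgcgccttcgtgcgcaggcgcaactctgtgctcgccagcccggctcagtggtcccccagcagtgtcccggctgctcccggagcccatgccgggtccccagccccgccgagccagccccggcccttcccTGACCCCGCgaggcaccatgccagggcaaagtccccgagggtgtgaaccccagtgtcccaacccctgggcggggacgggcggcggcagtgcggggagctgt

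The Ugdh window held 2 matches to the first motif and 3 to the second, of which 1 of each overlap, and the Slc35d1 window held 1 match to the first. Neither Ugt2b window held these letters. A match here is a description of letters, not a binding site. Over all 32851 promoter windows of the same length, TGACNNNGC was found in 10.2% and GCGTG in 28.2%. Promoters were listed for 41 of the 47 tested genes, in 50 windows, of which 4 (8%) held the first and 9 (18%) the second. The HNF1 half-site GTTAAT was in 9 of the 50 windows (18%) and in 6.43% of all windows, with matches on either strand counted. The genes with it were Gsta3, Sult1a1, Sult1d1, Ugt1a1, Ugt1a10, Ugt1a6a, Ugt1a9, Ugt2a3 and Ugt3a1.

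Per kb of transcript, the families differed far more among their own genes than between groups. Gstm1 (mu class) had the highest mean level over all libraries, 79784 normalized counts per kb, followed by Gstp1 (pi class, predominant in male mouse liver) with 63259 and the membrane-bound Mgst1 with 38240. Gstm3 had 17242 and Gsta3 (alpha class, which detoxifies aflatoxin epoxide in mice) 13878 per kb. Among glucuronosyltransferases, Ugt2b5 had 10195 per kb, Ugt2b36 7009, Ugt2b34 4424, Ugt1a9 3588 and Ugt1a1, the bilirubin-conjugating enzyme, 3067. The sulfotransferases were lower: Sult1d1, which acts on catecholamines, had 1723 per kb and Sult1a1, which acts on simple phenols, 1206. Sult2a1 and Sult2a2, hydroxysteroid sulfotransferases predominant in female mouse liver, had 29.4 and 51.2 per kb.

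**Figure D1:**
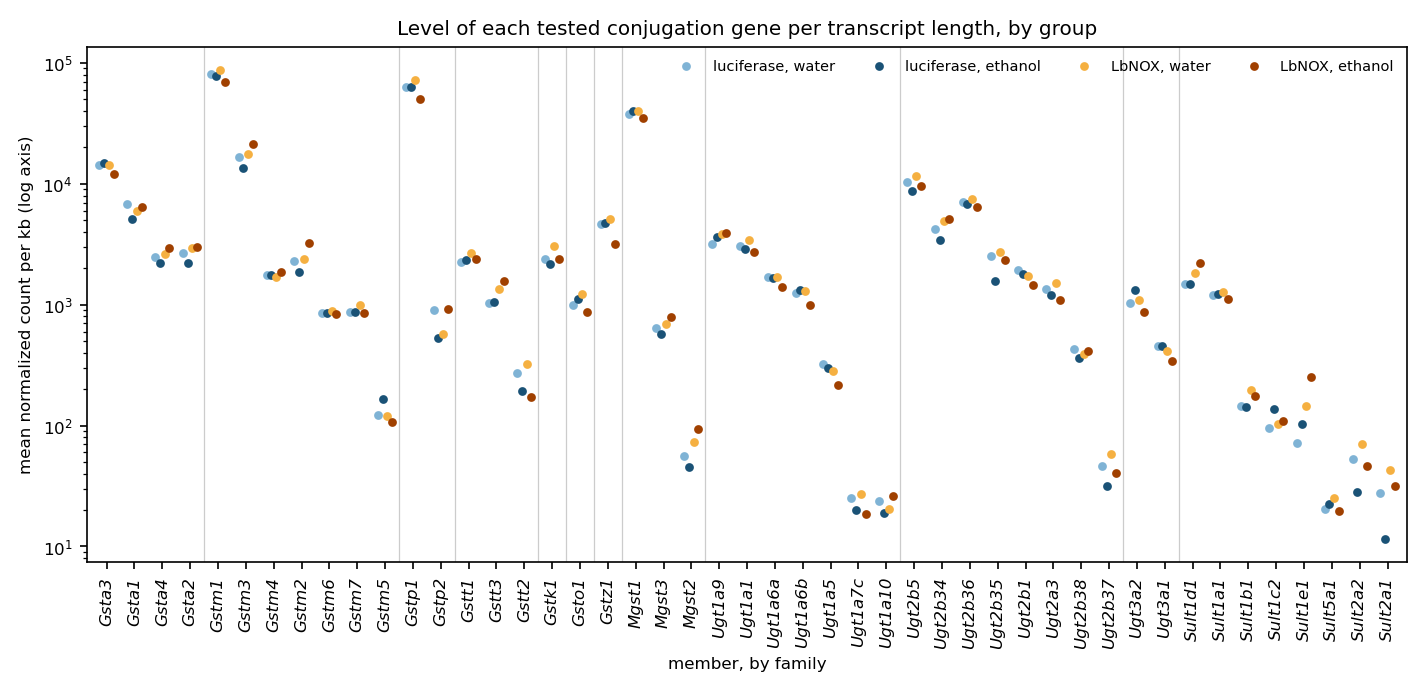
Mean level of each of the 47 tested conjugation genes in each of the 4 groups, in normalized counts per kb of transcript on a log axis, with families separated by grey lines. Levels span from 79784 per kb for Gstm1 down to 22.1 for Sult5a1 when averaged over all libraries, and the 4 points of a gene mostly lie close together.

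Some of these genes have near-identical copies between which reads can be split wrongly. At least 50% of the 31-base words of the transcript also occurred in another gene for 16 of the 53, and under 10% for 27. The Ugt1a genes, which share their last exons, had 53% to 84.2% of words in common with other genes. Gsta1 had 92.9%, and Gstp2 60.3% (54.8% with the more abundant Gstp1). Values of all these are uncertain as single genes. Ugt2b34 shared 2.95%, Ugt2b35 4.37%, Ugdh 3.24% and Slc35d1 0.68%.

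Ethanol in luciferase livers was followed by a change in 1 of the 47 conjugation genes, the fall of Ugt2b35. Ugt2b35 had 7927, 8998, 9555, 8956 and 6762 normalized counts in the water libraries M1 to M5 and 3947, 5971 and 5773 in the ethanol libraries M10 to M12. Every ethanol library lay below every water library, with M10 the lowest of all. The means were 8440 ± 1107 (SD, n = 5) and 5230 ± 1116 (SD, n = 3), which gave -0.70 as log2 fold change (SE 0.15, limma adjusted p = 0.00873), or 1.63-fold lower. Without M10 the log2 fold change was -0.51 and the adjusted p 0.0641.

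In this comparison limma called 7.75% of all 13570 genes tested, and 3.13% as lower, beside 1 of the 47 conjugation genes. At an unadjusted p below 0.05 there were 4 of the 47, against 21.1% of all genes. edgeR and DESeq2 on the recovered reads also called 1 each, where they called 7.65% and 11.9% of all genes. Groups did not overlap for 1 of the 47, Ugt2b35, and for 14.7% of all genes. The median log2 fold change of the 47 was -0.02 (all genes, 0.01), 23 were above 0, and for 32 the 95% interval stayed within a 2-fold change.

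The other genes nearest the threshold were Sult1c2, Gstm5 and Ugt2b34, none of which passed. Sult1c2, a sulfotransferase of the phenol family, had 224, 179, 160, 147 and 170 normalized counts after water and 300, 208 and 255 after ethanol (log2 fold change 0.53, SE 0.20, adjusted p = 0.129). Gstm5, a mu class transferase at a low level, had 97.1, 97.2, 80.6, 134 and 92 after water and 130, 127 and 146 after ethanol (0.44, SE 0.18, adjusted p = 0.179). In both, a single water library (M1 for Sult1c2, M4 for Gstm5) reached into the ethanol range. Ugt2b34 stood at -0.31 on the log2 scale (SE 0.14, adjusted p = 0.205).

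**Figure D2:**
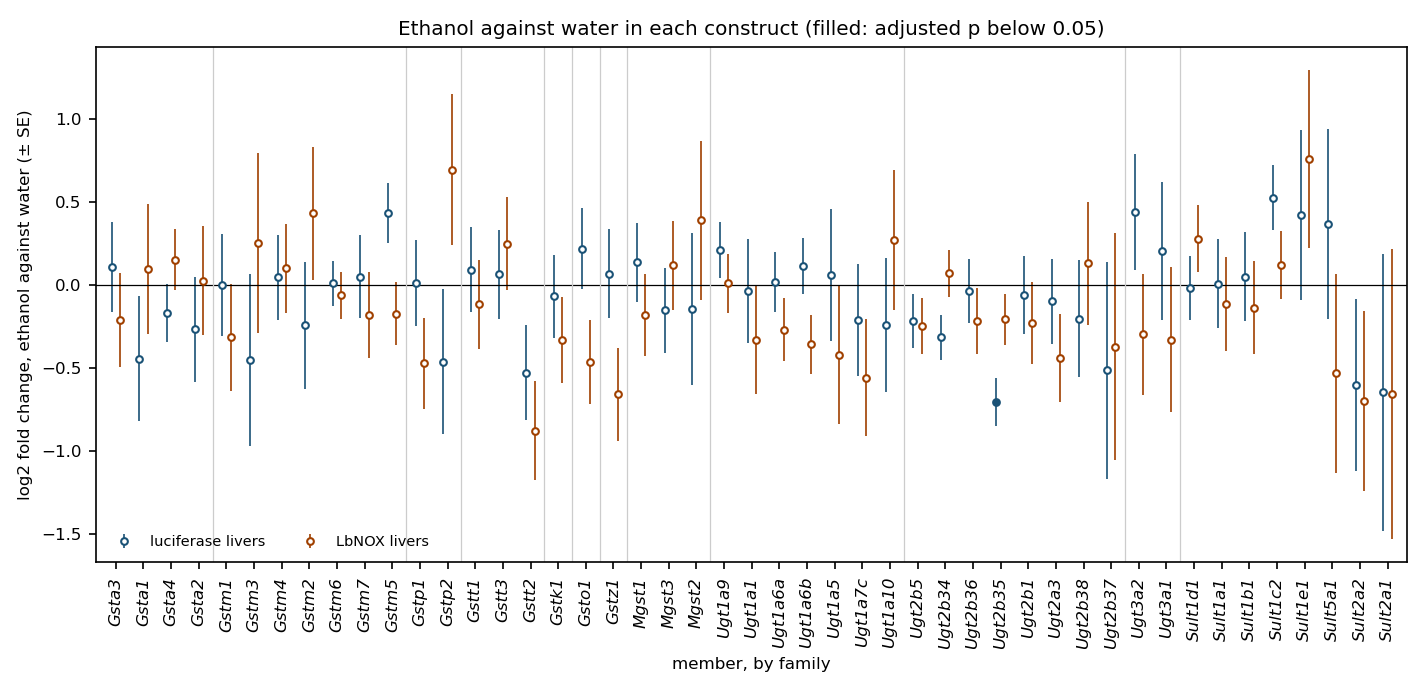
Log2 fold change of ethanol against water for each of the 47 tested genes, with its standard error, in luciferase livers (blue) and LbNOX livers (orange-brown); filled points had an adjusted p below 0.05. The single filled point is Ugt2b35 in luciferase livers, at -0.70.

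Of 11 genes listed for UDP-glucuronic acid supply and use, Slc35d1 and Ugdh fell in the same livers and the other 9 did not pass the test. The 2 calls were 18.2% of the list, beside 7.75% of all genes called and 3.13% called as lower, and so few genes do not set it apart. The median log2 fold change of the list was -0.25 (all genes, 0.01). Slc35d1, which carries UDP-glucuronic acid into the endoplasmic reticulum, had 2929, 3558, 4107, 4863 and 3405 normalized counts after water and 2122, 2497 and 2321 after ethanol (-0.69, SE 0.14, adjusted p = 0.00749), with no overlap. Ugdh, which oxidizes UDP-glucose to UDP-glucuronic acid with NAD+, had 11453, 11408, 9864, 11663 and 6372 after water and 4408, 6373 and 7249 after ethanol (-0.75, SE 0.22, adjusted p = 0.0468). The ranges of Ugdh overlapped, with the water library M5 as low as M11. The Ugdh call held in 9 of 26 alternative settings, with adjusted p up to 0.25, and of the 15 fits that left out 1 library only those without M5 or M9 kept it. The Slc35d1 call held in 23 of 26, with adjusted p up to 0.0596, and was lost without M10. Ugp2, which makes UDP-glucose, did not pass (0.26, SE 0.17, adjusted p = 0.421).

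**Figure D3:**
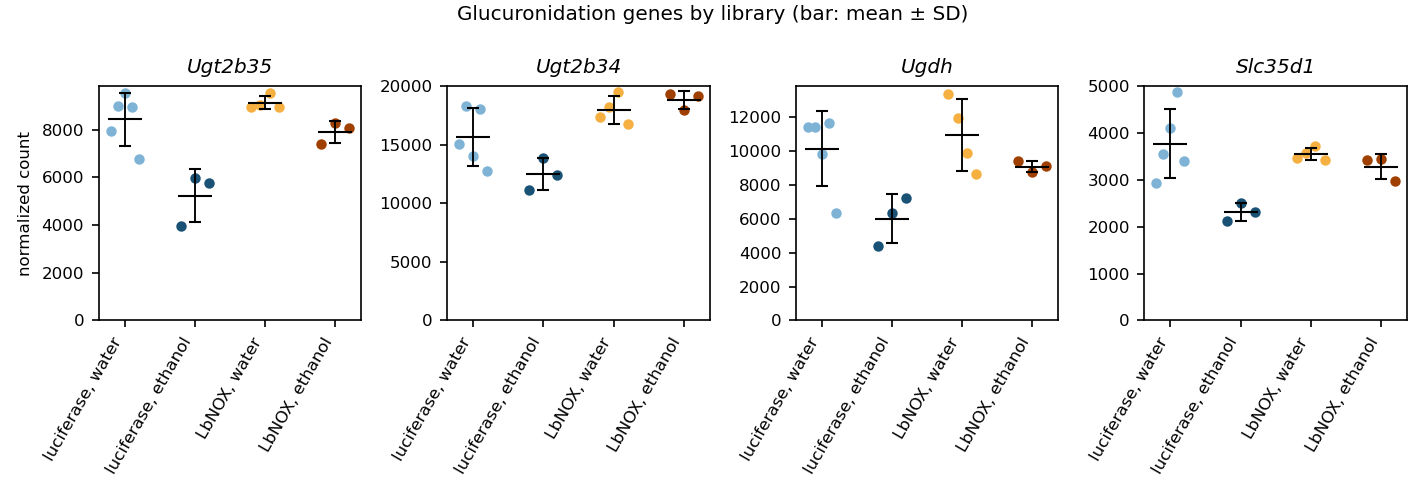
Normalized counts of Ugt2b35, Ugt2b34, Ugdh and Slc35d1 in every library, by group, with the group mean and SD as bars. In the Ugt2b35 and Slc35d1 panels the 3 luciferase ethanol libraries (3947 to 5971 and 2122 to 2497) lie below all other libraries.

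By family, none of the 19 tested soluble transferases, 3 Mgst or 8 Sult genes passed the test after ethanol in luciferase livers. The medians of the log2 fold changes were -0.22 for the 4 Gsta genes, 0.01 for the 7 Gstm genes, -0.14 for the 3 Mgst genes, 0.02 for the 7 tested Ugt1 genes, -0.21 for the 8 Ugt2 genes and 0.03 for the 8 tested Sult genes. All 8 Ugt2 genes had a fold change below 0, between -0.70 and -0.04, where 50.6% of all genes were above 0. Only Ugt2b35 passed the test, and Ugt2b1, Ugt2b36, Ugt2b37, Ugt2b38 and Ugt2a3 lay within their own SE of 0. These neighbouring genes were measured in the same libraries and are not independent samples. The summed Ugt2 counts were 65339 ± 10299 (SD, n = 5) after water and 54890 ± 4391 (SD, n = 3) after ethanol, with overlapping ranges. Among the most abundant genes, Gstm1 had 86359 ± 42357 after water and 82212 ± 22316 after ethanol (log2 fold change 0.00, SE 0.31). Mgst1 had 34565 ± 11043 and 36544 ± 2899 (0.14, SE 0.24), and Gstm3 21824 ± 11606 and 17599 ± 11355 (-0.45, SE 0.52). Gstp1 was at 0.01 (SE 0.26) and Gsta3 at 0.11 (SE 0.27). None of these passed the test. The values were imprecise, with limma's interval for Gstm1 running from -0.65 to 0.66, so a change in either direction is not excluded.

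In LbNOX livers, ethanol was followed by no call among the 47 genes, with the smallest adjusted p at 0.276. limma called 0.00737% of all genes there, which was 1 gene, edgeR 0.00729% and DESeq2 2.09%; edgeR and DESeq2 called none of the 47. At an unadjusted p below 0.05 there were 2 of the 47, Gstt2 and Gstz1, against 11.6% of all genes. Gstt2, a theta class transferase, had 527, 398, 273 and 571 normalized counts after water and 198, 299 and 209 after ethanol (log2 fold change -0.88, SE 0.30, adjusted p = 0.276). Gstz1, which isomerizes maleylacetoacetate in tyrosine breakdown, had 6780, 6516, 4022 and 8716 after water and 4294, 4833 and 3030 after ethanol (-0.66, SE 0.28, adjusted p = 0.392). In both genes the water library M8, which holds the pancreatic RNA named above, fell among the ethanol libraries. With M3 and M8 omitted, Gstt2 had -1.09 (adjusted p = 0.0678) and Gstz1 -0.87 (adjusted p = 0.0541), still short of the threshold.

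Ugt2b35 had 8960, 9044, 9533 and 8969 after water and 7406, 8278 and 8082 after ethanol in LbNOX livers, groups that did not overlap but a change (-0.21, SE 0.15) that did not pass the test. The other genes without overlap were Gstp2 and Sult1d1, both higher after ethanol, so that 3 of 47 did not overlap, against 10.9% of all genes. The median of the 47 was -0.18 (all genes, 0.00), 17 were above 0, and for 26 the 95% interval stayed within a 2-fold change. Ugt1 genes had a median of -0.33, Ugt2 genes -0.22, Gstm genes -0.06 and Gsta genes 0.06. Slc35d1 (-0.11, SE 0.15) and Ugdh (-0.25, SE 0.23) did not pass either.

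LbNOX against luciferase after water gave no call among the 47 genes, and limma and edgeR called 0% of all genes; DESeq2 called 0.132%, none of them a conjugation gene. At an unadjusted p below 0.05 there was 1 of the 47, Sult1e1, against 3.24% of all genes. Sult1e1, the estrogen sulfotransferase, had 155, 106, 75.6, 29.3 and 77 normalized counts in luciferase and 254, 182, 149 and 144 in LbNOX livers after water. The library M1 reached into the LbNOX range (log2 fold change 1.18, SE 0.47, adjusted p = 1). For Sult1b1, which acts on thyroid hormones, and Ugt1a9, a phenol glucuronosyltransferase, log2 fold changes were 0.51 (SE 0.25) and 0.29 (SE 0.16), both with adjusted p = 1.

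No gene of the 47 was free of overlap in this comparison, against 0.936% of all genes. The fold change was above 0 for 40 of the 47 and for 51.8% of all genes, and the median was 0.17 (all genes, 0.01). All 8 tested Sult genes, all 3 Mgst and 16 of 19 soluble transferases were above 0. These counts are over genes measured in the same libraries, not over independent samples. For 37 genes the 95% interval stayed within a 2-fold change. The library M3, one of the 5 luciferase water libraries, had the lowest value of all 15 for 17 of the 40 conjugation genes with a mean of at least 100. At that mean it was lowest for 16.7% of all genes. Its part in the direction of these values was not tested.

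After ethanol, LbNOX livers had more Ugt2b34 and Ugt2b35 RNA than luciferase livers. Ugt2b34 had 11184, 13886 and 12463 normalized counts in luciferase (M10 to M12) and 19361, 17981 and 19227 in LbNOX livers (M13 to M15). The groups were far apart, with means of 12511 ± 1351 and 18856 ± 761 (SD, n = 3 each). The log2 fold change was 0.60 (SE 0.15, adjusted p = 0.0346), or 1.51-fold. Ugt2b35 had 3947, 5971 and 5773 against 7406, 8278 and 8082, again without overlap, at 0.62 on the log2 scale (SE 0.16, adjusted p = 0.0385). This comparison shares the luciferase ethanol libraries with the ethanol comparison in luciferase livers, so the 2 results for Ugt2b35 rest in part on the same 3 values. For reference, after water Ugt2b34 had 15089, 18340, 14041, 18060 and 12748 in luciferase and 17350, 18278, 19493 and 16771 in LbNOX livers.

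Both calls were close to the threshold. Over 26 alternative settings the Ugt2b34 call held in 18, with adjusted p up to 0.143, and the Ugt2b35 call in 14, with adjusted p up to 0.164. The fold changes stayed positive throughout, at 0.52 to 0.84 and at 0.43 to 0.75. Both calls were lost without M6, M7, M10, M12, M13, M14 or M15, and that for Ugt2b35 also without M1 or M2 and under quantile normalization, which called Sult1d1 in its place; of these libraries, M1, M2, M6 and M7 enter this comparison only through the shared estimate of the spread.

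Set against the table, 2 of 47 called (both higher) compares with 6.06% of all genes called and 2.24% called as higher. There were 7 of the 47 at an unadjusted p below 0.05, against 21% of all genes. edgeR called 2 of the 47 (5.45% of all genes) and DESeq2 3 (10.1% of all genes), adding Gstm5. Gstm5 had 130, 127 and 146 normalized counts in luciferase and 88.6, 81.6 and 88.3 in LbNOX livers after ethanol (limma log2 fold change -0.63, SE 0.20, adjusted p = 0.0842; DESeq2 adjusted p = 0.0449). Groups did not overlap for 12 of the 47, against 29.6% of all genes. Higher in LbNOX livers were Gstp2, Gstt3, Mgst2, Sult1d1, Sult1e1, Ugt2b34 and Ugt2b35, and lower were Gstm5, Gstz1, Ugt1a6a, Ugt1a6b and Ugt3a2.

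Sult1e1 had 39.9, 147 and 193 against 210, 329 and 392 normalized counts (1.51, SE 0.57, adjusted p = 0.141). Sult1d1 had 2496, 4553 and 3796 against 5197, 5629 and 5181 (0.60, SE 0.22, adjusted p = 0.119). Neither passed the test, although no libraries overlapped. The phenol-conjugating Ugt1a6b had 3344, 2851 and 2893 against 2434, 2232 and 2186 (-0.40, SE 0.19, adjusted p = 0.237). Over the 47 genes the median was 0.03 (all genes, 0.00), 24 were above 0, and for 26 the 95% interval stayed within a 2-fold change.

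Within the Ugt2 cluster, the values of neighbours differed. Ugt2b1 lies between Ugt2b34 and Ugt2b35, starting 26.9 kb from the first base of the cluster, and had a log2 fold change of -0.29 (SE 0.26) for LbNOX against luciferase after ethanol. Ugt2b36, 176 kb from that base, had -0.09 (SE 0.21), and the most abundant of the cluster, Ugt2b5, at 235 kb, had 0.14 (SE 0.18). In luciferase livers after ethanol Ugt2b1 had -0.06 (SE 0.24), Ugt2b36 -0.04 (SE 0.19) and Ugt2b5 -0.21 (SE 0.16). Whether Ugt2b35 differed from its neighbours in either comparison was not tested. Ugt2b5 and Ugt2b38 share 56.4% and 52.9% of their words with other genes, so their values are less certain. Ugt2a1 and Ugt2a2, at the far end, were not analysed here.

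**Figure D4:**
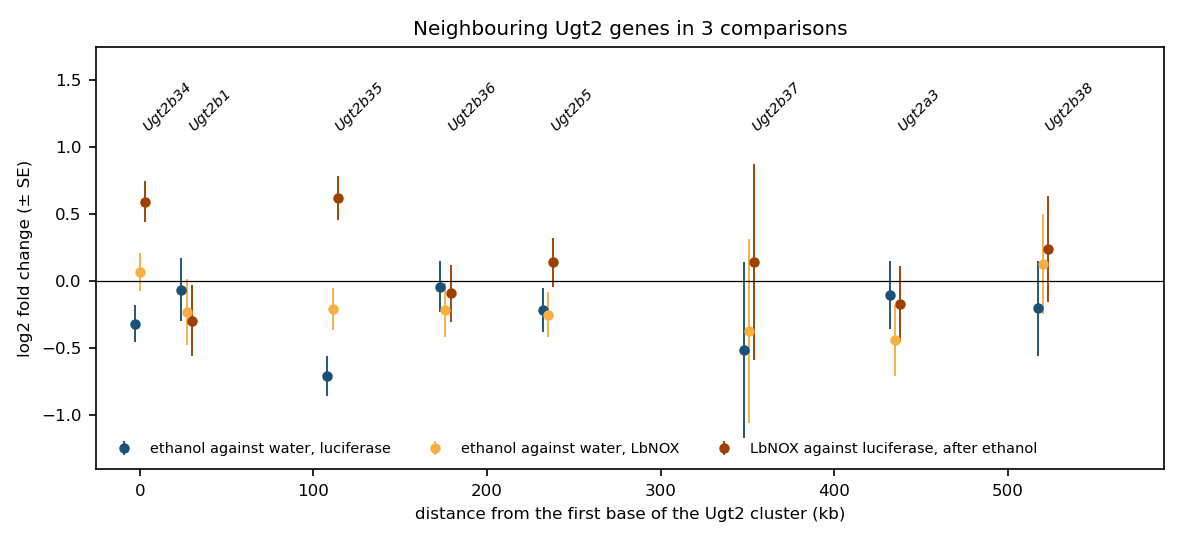
Log2 fold changes with standard errors of the 8 Ugt2 genes of the table, placed by distance in kb from the first base of the cluster, in 3 comparisons. Ugt2b34 and Ugt2b35 stand at 0.60 and 0.62 for LbNOX against luciferase after ethanol, whereas Ugt2b1 between them is at -0.29.

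The ethanol effect itself was not shown to differ between constructs for any conjugation gene. The difference (LbNOX effect minus luciferase effect) had its smallest adjusted p, 0.286, for Ugt2b35 (0.50, SE 0.21), followed by Gstm5 (-0.61, SE 0.26, adjusted p = 0.291). limma called 1.67% of all genes and 0 of the 47, edgeR 1.59% and 0, and DESeq2 4.63% and 0. At an unadjusted p below 0.05 there were 2 of the 47 against 14.6% of all genes. For Ugt2b34 and Ugt1a6b the differences were 0.39 (SE 0.20) and -0.47 (SE 0.24), each with adjusted p = 0.387. Precision was low here: for 14 of the 47 the 95% interval stayed within a 2-fold difference, and the median was -0.18 (all genes, -0.01).

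The lists on cofactors, other conjugation and transport were called about as often as the table as a whole. Of their 69 tested genes, 6 (8.7%) were called after ethanol in luciferase livers, 5 (7.25%) for LbNOX against luciferase after ethanol and 2 (2.9%) in the difference of the ethanol effects, beside 7.75%, 6.06% and 1.67% of all genes. Of 18 genes of glutathione supply, limma called 1 (5.56%) as higher and none as lower after ethanol in luciferase livers. This was Chac1, which degrades glutathione and is a target of the integrated stress response, at 183 ± 69.2 after water and 516 ± 55 after ethanol (1.59, SE 0.31, adjusted p = 0.00524). Gclc, the catalytic subunit of the first step of glutathione synthesis, had 11573 ± 3739 and 6123 ± 2221 and did not pass in limma (-0.92, SE 0.30, adjusted p = 0.0824). Gclm, its modifier subunit, had -0.25 (SE 0.13, adjusted p = 0.265). DESeq2, which called 11.9% of all genes, did call Gclc (adjusted p = 0.0207), and also Ggt1 (0.00727) and Gnmt (0.0252), both higher after ethanol. edgeR called Ggt1 (adjusted p = 0.0359) but not Gclc (0.0834). Ggt1 was low, at 6.19 ± 1.59 and 37.5 ± 27.2.

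In the sulfate group, 9 of 11 listed genes were in the table and 8 were tested. Arsa, a lysosomal sulfatase that removes sulfate from sulfatides, had 1800, 1692, 1169, 1795 and 1769 normalized counts after water and 3113, 2959 and 3041 after ethanol in luciferase livers (0.90, SE 0.16, adjusted p = 0.00263). In LbNOX livers it had 1866, 1823, 1479 and 1852 after water and 1903, 1531 and 1310 after ethanol, and the difference of the ethanol effects was -1.06 (SE 0.23, adjusted p = 0.0303). The luciferase ethanol libraries thus stood alone, above all others. Slc26a1, a sulfate anion transporter, had 4643, 3413 and 4664 in luciferase and 2056, 2763 and 1932 in LbNOX livers after ethanol (-0.92, SE 0.16, adjusted p = 0.00471), and a difference of -0.999 (SE 0.21, adjusted p = 0.0282). Papss2, which makes the sulfate donor, did not pass in luciferase livers (-0.24, SE 0.20, adjusted p = 0.551). Arsa kept its call after ethanol in luciferase livers in 26 of 26 settings, as did Slc26a1 for LbNOX against luciferase after ethanol. The call of the difference held in 8 of the 15 fits that left out 1 library for Arsa (lost without M6, M7, M9, M10, M12, M14 or M15), with adjusted p up to 0.0962, and in 9 for Slc26a1 (lost without M6, M7, M10, M12, M13 or M15), with adjusted p up to 0.0953.

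Of the 14 export and uptake genes, Abcb1a (a P-glycoprotein) fell in luciferase livers after ethanol (-0.95, SE 0.27, adjusted p = 0.0436). The uptake carrier Slco2b1 and the exporter Abcc6 were lower in LbNOX than luciferase livers after ethanol (-1.21, SE 0.24, adjusted p = 0.00941, and -0.75, SE 0.21, adjusted p = 0.0476). Of 22 other conjugating enzymes, 20 in the table, the glycine-conjugating Gm4952 was lower after ethanol in luciferase livers (-0.44, SE 0.12, adjusted p = 0.0351). The acyl-CoA synthetase Acsm5 was lower in LbNOX than luciferase livers after ethanol (-1.44, SE 0.35, adjusted p = 0.0272). Among 21 phase I genes, Cyp2c29 rose after ethanol in luciferase livers (0.98, SE 0.26, adjusted p = 0.0318). Cyp2c55 was higher in LbNOX than luciferase livers after ethanol (1.11, SE 0.29, adjusted p = 0.0366). Each was the only call of the phase I list in its comparison (4.76%), beside 7.75% and 6.06% of all genes in turn. Over 26 settings these calls held in 10 for Abcb1a, 12 for Abcc6, 16 for Gm4952 and for Cyp2c55, 19 for Cyp2c29, 21 for Acsm5 and 24 for Slco2b1. Adjusted p reached 0.23, 0.195, 0.125, 0.149, 0.134, 0.131 and 0.066 in turn. All 7 calls were lost without M10, and all but that for Slco2b1 without M12. Leaving out other single libraries ended the call for Acsm5 (M13 or M15), Cyp2c29 (M1, M2 or M11), Gm4952 (M1, M2, M4, M7 or M11), Cyp2c55 (M2, M6, M7, M11, M13 or M14), Abcc6 (M1, M2, M4, M6, M7, M11, M13 or M15) and Abcb1a (M1, M2, M3, M5, M6, M7, M11, M13, M14 or M15).

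Of 19 tested regulators, 2 (10.5%) were called after ethanol in luciferase livers, beside 7.75% of all genes. For LbNOX against luciferase after ethanol 3 (15.8%) were called, beside 6.06% of all genes. Calls on so few genes do not set the list apart from the table. Among the regulators, Maff had the largest change. This small Maf protein, a partner of NRF2 on DNA, had 38.4, 60, 68.2, 45.7 and 61 normalized counts after water and 413, 278 and 292 after ethanol in luciferase livers (2.57, SE 0.27, adjusted p = 7.89e-05). In LbNOX livers it had 38.6, 43, 62.4 and 49.1 after water and 80.3, 36.4 and 54.4 after ethanol, and the difference was -2.38 (SE 0.40, adjusted p = 0.00847). Nfe2l1, a relative of NRF2, fell in luciferase livers (-0.69, SE 0.15, adjusted p = 0.00888), a call lost without M10 (adjusted p = 0.0693). Ahr and its partner Arnt were higher in LbNOX than luciferase livers after ethanol (1.25, SE 0.29, adjusted p = 0.0237, and 0.56, SE 0.13, adjusted p = 0.0202). Each of these calls held in 21 of 26 settings, with adjusted p up to 0.121 for Ahr and 0.0893 for Arnt. Both were lost without M10, M13 or M15, that for Ahr also without M12 and that for Arnt also without M11. The gene of NRF2, Nfe2l2, did not pass in luciferase livers (-0.27, SE 0.15, adjusted p = 0.347).

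Some Gsta and Gstm genes varied between libraries in a way the groups did not follow. Of the 40 conjugation genes with a mean of at least 100, 6 (15%) had M5 (luciferase, water) and M10 (luciferase, ethanol) as their 2 lowest libraries. They were Gsta1, Gsta4, Gstm1, Gstm2, Gstm3 and Gstm4, whereas M5 and M10 were the lowest pair for 102 of 9507 genes (1.07%) at that mean. Gstm3 had 7819 normalized counts in M5 and 4965 in M10, and 18186 to 40014 in the other 13. Gsta4, which conjugates the lipid peroxidation product 4-hydroxynonenal, had 1843 in M5 and 1756 in M10, with M12 next at 2089 and the highest, M13, at 3429. The pattern did not hold for the whole families: Gsta2, Gsta3, Gstm5, Gstm6 and Gstm7 had other lowest pairs. Gsta3 had 17471 in M5 and 19970 in M10, both above its mean of 16307.

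Of 20 NRF2 target genes outside the families, Pgd (0.95, SE 0.24, adjusted p = 0.0277) and Me1 (1.00, SE 0.25, adjusted p = 0.0243) rose and Osgin1 fell (-1.15, SE 0.30, adjusted p = 0.0285) after ethanol in luciferase livers. Hmox1 was higher (1.40, SE 0.36, adjusted p = 0.0331) and Me1 lower (-1.26, SE 0.28, adjusted p = 0.0174) in LbNOX than luciferase livers after ethanol. These were 3 (15%) and 2 (10%) of the 20 genes, beside 7.75% and 6.06% of all genes in the 2 comparisons. The list's median log2 fold changes were -0.43 and 0.53 in turn (all genes, 0.01 and 0.00). All 5 calls were lost without M10, without M12 and with M5 and M10 omitted, and those for Hmox1 and Me1 in LbNOX against luciferase livers also without M13 or M15 (Hmox1 also without M11). They held in 21 of 26 settings for Pgd, 22 for Me1 and for Osgin1 after ethanol, and 19 for Hmox1 and 21 for Me1 between constructs. The same pair was lowest for 5 of 18 of the list at a mean of at least 100: Nqo1, Gclc, Srxn1, Cbr1 and Cbr3. Cbr3, a carbonyl reductase, had 344 and 142 in M5 and M10, and 720 to 2062 elsewhere. The pair comes from both gavages, and no single tube, day or animal is named for either library. Without M5 and M10, Gstm3 had a log2 fold change of -0.02 after ethanol in luciferase livers (with them -0.45, SE 0.52), and neither value passed the test.

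**Figure D5:**
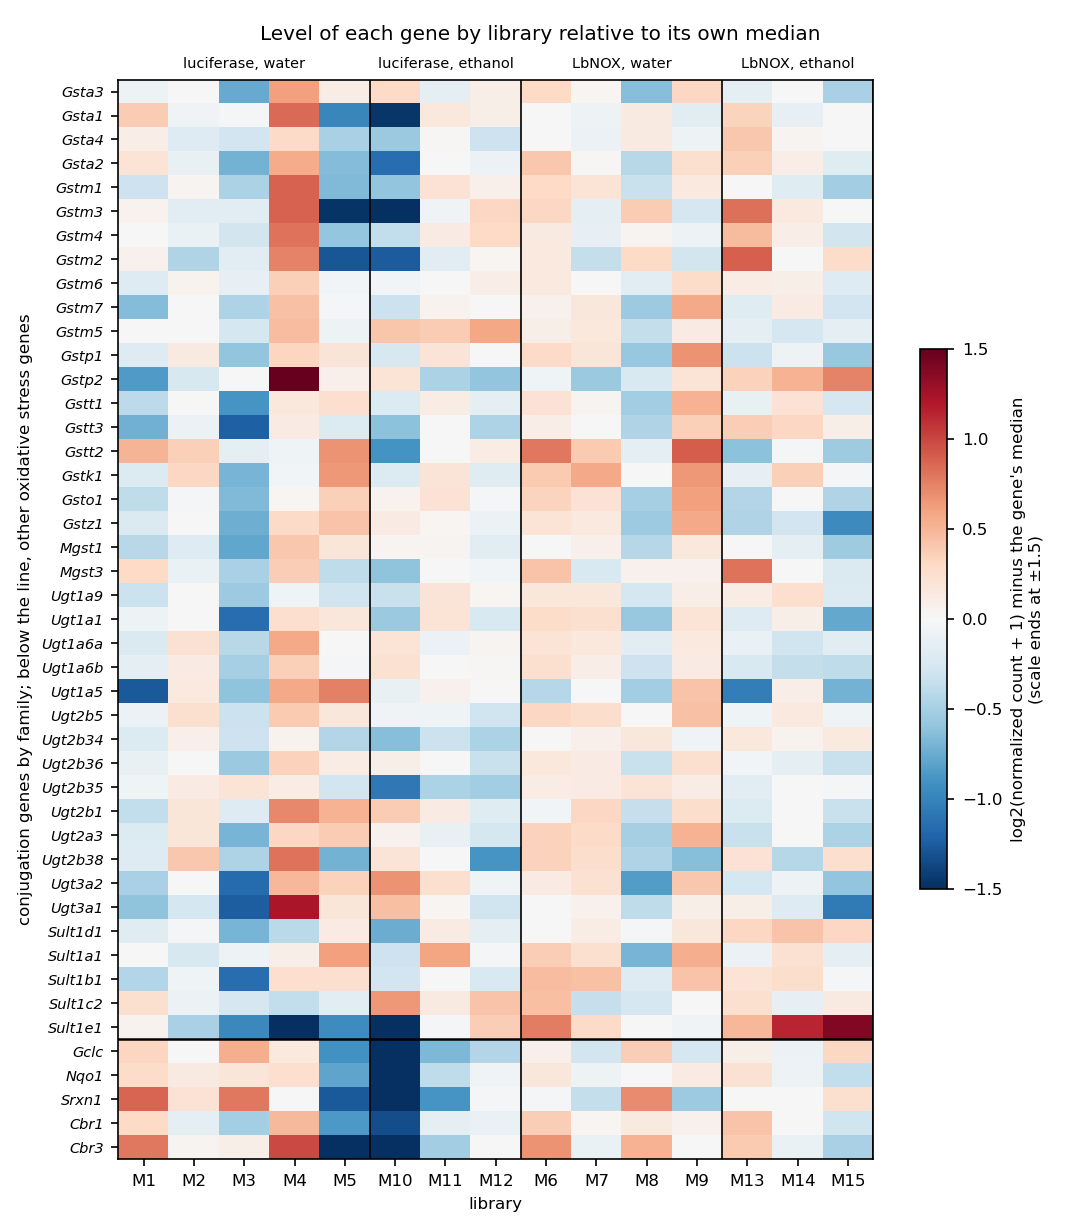
Level of the 40 conjugation genes with a mean of at least 100 and of 5 NRF2 target genes (below the line) in each library, as log2(normalized count + 1) minus the gene's own median; colours end at 1.5 in either direction. Columns M5 and M10 are blue for Gstm2, Gstm3 and the 5 genes below the line, paler in M5 than in M10 for Nqo1 and Gclc. Column M4 is red for most Gsta and Gstm genes. The 5 genes below the line are those of 18 NRF2 targets that had M5 and M10 as their lowest libraries. Their blue columns follow from that choice, and the rest of the 18 are not shown.

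M4, a luciferase water library, was the highest of the 15 for 15 of the 40 genes, where 9.27% of all 9507 genes had their highest value in it. M3, of the same group, was the lowest for 17 of the 40, against 16.7% of all genes. Gstm1 accordingly ran from 54184 (M5) to 158669 (M4) within the luciferase water group, with 69072, 88220 and 61653 in the others. The pair of M3 and M8 was lowest for 7 genes (17.5%; 6.67% of all genes) and M3 with M15 for 6 (15%; 7.12% of all genes). With M3 and M8 omitted, the called conjugation genes in the 5 comparisons were those called with all libraries, plus Gstm5 for LbNOX against luciferase after ethanol (3 in place of 2).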

How the data were processed

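Per the labels' protocols, RNA was purified with an RNeasy kit and libraries were made with a KAPA mRNA kit. Salmon 1.5.1 and DESeq2 1.30.1 are listed, with the build mm10 and no role, in the submitters' processing notes. Values in the deposited table are a signal, namely a normalized count that the authors made by dividing each library by its own factor, as the steps between values show. All values came out whole within 0.001 (100%), so reads were recovered; depth was 10.6 to 23.7 M per library, and a gene of a few counts is imprecise. Columns name a group and no replicate; none was left unmapped (0).

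limma 3.58.1 (R 4.3.3; trend, robust) was fitted to log2(normalized count + 1) for the 13570 genes that reached 10 in at least 3 libraries, in a single fit of the 4 groups with 5 contrasts; genes were called at a Benjamini-Hochberg adjusted p below 0.05. Fold changes are on that scale, which understates changes of low genes. Standard errors and 95% intervals are limma's. The test was checked on simulated data. Alternatives were quantile normalization, no trend, no filter or a mean of 50, a pseudocount of 0.5 or 10, only the groups compared, each library left out, M3 and M8 omitted, edgeR 4.0.16 and DESeq2 1.42.0 on recovered reads and, added after the values were seen, M5 and M10 omitted. Genes were placed with GENCODE release 21 on GRCm38. Levels per kb use the median length of a gene's protein-coding transcripts.

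Members and lists (glutathione, UDP-glucuronic acid and PAPS supply, other conjugating enzymes, export and uptake, phase I cytochromes, regulators, NRF2 targets, cell markers) were chosen with earlier results of these data known. Named were genes called, the 4 most abundant of each superfamily, the 3 smallest p-values per comparison, called list genes and a few controls; the genes of the library patterns, those without overlap, the remaining Ugt2 genes, Gclc, Gsta4, Cbr3, Nfe2l2, Sult2a, and the called NRF2 target and marker genes were chosen after their values were seen.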

Additional observations from a re-analysis of the deposited data

Results flagged for a closer look

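In 5 of 94 groups of 4 or 5 libraries, 1 library lay far from the rest by Dixon's test at the 95% level; chance gives about 1 in 20. Gstp2 was 1867 normalized counts in M4 of the luciferase water group, whose other libraries had 276 to 526. The remaining 4 concern M8 of the LbNOX water group, the library with the highest level of the pancreatic gene Pnlip (1822). It was low for Sult1b1 (363; others 559 to 573), Ugt1a1 (4889; others 8343 to 8768) and Ugt1a6a (3243; others 4023 to 4183), and high for Ugt2b35 (9533; others 8960 to 9044).

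The contrast of the 2 ethanol effects in limma called 3 genes of the lists examined, and 1.67% of all genes. Arsa and Slc26a1 were 2 of the 69 tested genes (2.9%) of the lists around the enzymes, and Maff was 1 of 19 regulators (5.26%). The calls for Arsa and Slc26a1 held in 8 and 9 of the 15 fits that left out 1 library. The LbNOX effect minus the luciferase effect was -1.06 for Arsa, -0.999 for Slc26a1 and -2.38 for Maff, and no conjugation gene was among them.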

How the results depend on the processing

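For ethanol against water in luciferase livers, the count of called conjugation genes (1) became 2 with quantile normalization (adding Ugt2b5) and 0 with only the groups compared, and ran from 0 to 1 with each library left out (0 without M10). For LbNOX against luciferase after ethanol, the count (2) became 1 with only the groups compared (Ugt2b34) and 0 with M5 and M10 omitted, was 3 with DESeq2 and with M3 and M8 omitted (adding Gstm5), and ran from 0 to 2 with each library left out; with quantile normalization it stayed 2, with Sult1d1 in place of Ugt2b35. Counts of the other 3 comparisons were 0 in every setting run. Over all genes, the calls after ethanol in luciferase livers (1052) were 614 with only the groups compared, 1627 with DESeq2, 434 with M5 and M10 omitted and 446 to 1217 with each library left out. For LbNOX against luciferase after ethanol (822) they were 1353 with DESeq2, 256 with M5 and M10 omitted and 299 to 944, and for the difference of the ethanol effects (227) 634, 58 and 64 to 403, with 151 without the trend and 395 with M3 and M8 omitted. After ethanol in LbNOX livers (1) they were 280 with DESeq2, 142 with M3 and M8 omitted, 3 with only the groups compared, 0 without the trend or with M5 and M10 omitted and 0 to 28, and for LbNOX against luciferase after water (0) 18 with DESeq2, 2 with M3 and M8 omitted, 1 with M5 and M10 omitted and 0 to 1. Of 3468 values of named genes under alternatives, 3232 kept their side of the threshold or, where not called, stayed within 1 SE, 202 lost a call, 4 gained one and 30 uncalled values moved further. No called value changed sign, and of 2626 values not called, 106 (4.04%) did. No paired analysis was possible because the columns carry no replicate number. Depth limits genes of a few counts.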
